A study of Mus musculus with 6 samples.

Results

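The 10 genes described here encode the classical MHC class I and class II molecules of the mouse (H2) and proteins that load or regulate them, and were chosen as a named list by GENCODE M21 symbol among the 55536 annotated genes. The 4 class I genes were H2-K1, H2-D1, B2m and Tap1, and the 6 class II genes were H2-Aa, H2-Ab1, H2-Eb1, H2-DMa, Cd74 and Ciita. Their RNA was compared between control (Pax7CreErt2;Hira fl/+, n = 3) and cKO (Pax7CreErt2;Hira fl/fl, n = 3) satellite cells, the stem cells of skeletal muscle. In the cKO the gene for HIRA, a chaperone of histone H3.3, was deleted in Pax7-expressing cells. The sample labels call the controls WT, and the genotypes given here are those of the study's methods. Both groups were C57BL/6J mice that carried the tamoxifen-dependent Cre and at least 1 floxed Hira allele, so that control cells can lose 1 allele of Hira, were fed tamoxifen and then regular food, and had the tibialis anterior muscle injured with BaCl2. Satellite cells were sorted 5 days post-injury by a gate that kept CD34+ ITGA7+ cells and left out cells positive for CD45, TER119 or SCA1. They were then cultured for 48 h in high-serum medium at low density. The study calls the samples independent RNA samples and does not say whether each came from 1 mouse, so p-values measure the spread between these samples.

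MHC class I molecules are made of a heavy chain, such as the products of H2-K1 and H2-D1, and of beta-2 microglobulin, the product of B2m. They carry peptides from the cytosol to the surface of almost all nucleated cells, and TAP1 is a subunit of the transporter that brings those peptides into the endoplasmic reticulum. MHC class II molecules are made of an alpha and a beta chain, are found mainly on dendritic cells, B cells and macrophages, and carry peptides from endosomes. CD74, the invariant chain, occupies their groove until endosomal proteases trim it and H2-DM exchanges the remnant for a peptide, and CIITA is the coactivator without which class II genes are hardly transcribed. Cultured myogenic cells are known to carry class I molecules and to make class II molecules only when stimulated, for example by interferon-gamma.

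Class I and class II promoters share a group of short elements that are bound by RFX, CREB and NF-Y proteins, through which CIITA acts on class II genes and NLRC5 on class I genes. Of the 10 genes, 7 had a RefSeq promoter window of 300 bases (250 before and 50 after the start site, build GRCm38.p6). The 180 bases before the start site are given below for 3 genes because they show this shared layout in genes whose levels in the same cells were far apart. Those of H2-D1 lie inside the first exon of its GENCODE model and are not shown. Capitals mark TGACG (the core of the CREB site) where it stood 15 to 25 bases before ATTGG (the NF-Y site read on the gene strand), and also GGGGATTCC (the NF-kB site of enhancer A) and TTTCACTTC (the interferon-stimulated element).
H2-K1, minus strand, chr17:34000348-34000527: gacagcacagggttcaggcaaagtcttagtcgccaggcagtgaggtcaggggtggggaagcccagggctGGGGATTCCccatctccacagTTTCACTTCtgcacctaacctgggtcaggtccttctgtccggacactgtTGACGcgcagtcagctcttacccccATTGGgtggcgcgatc
B2m, plus strand, chr2:122147507-122147686: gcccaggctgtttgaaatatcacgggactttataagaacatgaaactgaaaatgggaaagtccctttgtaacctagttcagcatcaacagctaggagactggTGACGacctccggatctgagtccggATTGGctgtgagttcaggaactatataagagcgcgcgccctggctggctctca
H2-Aa, minus strand, chr17:34287824-34288003: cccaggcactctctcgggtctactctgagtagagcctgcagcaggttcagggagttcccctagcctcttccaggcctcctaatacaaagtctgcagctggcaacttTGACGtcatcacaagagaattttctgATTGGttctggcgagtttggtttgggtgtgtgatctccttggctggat

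In H2-K1, H2-D1 and B2m, 20 bases lay between TGACG and ATTGG, and in H2-Aa 21 bases did. No window of Tap1, H2-Eb1 or H2-DMa, the other genes with a window, held TGACG 15 to 25 bases before ATTGG on either strand. Searched on both strands, this arrangement was found in 0.435% of 32851 promoter windows of the same length. GGGGATTCC was found in 0.25% of the windows and TTTCACTTC in 0.505%, and in the 7 genes with a window both were found only in H2-K1 and H2-D1, in the same order in both. ATTGG alone was found in 37.4% of the windows and TGACG alone in 20.8%. The arrangement holds both of these shorter motifs by its construction, and the other motifs share no bases with it in the windows shown. A match describes the letters and not the binding of a protein.

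The deposited counts summed to between 47944477 and 63323577 reads per sample. Hira itself was counted 375, 348 and 341 times in control and 161, 293 and 272 times in cKO, which is a log2 fold change of -0.43 ± 0.12 (SE; adjusted p = 0.0237, edgeR's quasi-likelihood test). Without control replicate 1 the adjusted p of Hira was 0.104. Without cKO replicate 1, the sample with 161 counts, its log2 fold change was -0.286 (adjusted p = 0.0459). A further gene on the same strand covers 44.7% of its exonic length. Of the 22404 genes tested, 15.8% passed an adjusted p of 0.05, 9.38% upwards (2101 genes) and 6.46% downwards (1448 genes). With scaling by total counts alone the split was 2462 up and 1057 down.

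B2m and H2-D1 rose in cKO satellite cells, and no class II gene passed the test. Of the 4 class I genes, 2 were upregulated and 0 were downregulated, beside 9.38% and 6.46% of all tested genes. Of the 5 class II genes that could be tested, 0 passed, beside 15.8% of all tested genes in either direction. With so few class II genes, 0 cannot be told apart from that share. Without adjustment, 3 class I genes and 1 class II gene had an edgeR p under 0.05, all upwards. The share of all tested genes under that p is not given here, but it cannot be below the 15.8% that passed with adjustment. DESeq2 and limma-voom called the same numbers of genes, 2 of class I and 0 of class II. The median log2 fold change was 0.24 over the 4 class I genes, 0.12 over the 5 tested class II genes and -0.0011 over all genes tested.

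B2m (ENSMUSG00000060802, chr2:122147686-122153083) was the most abundant of the 10 genes. Its level was 170, 172 and 177 CPM (read counts of a gene put on a common library total) in the control samples and 214, 231 and 209 CPM in the cKO samples. The groups did not overlap. The means were 173 ± 3.40 CPM for control and 218 ± 11.7 CPM for cKO (SD, n = 3), and the log2 fold change of 0.31 (95% interval 0.23 to 0.39, standard error 0.036, adjusted p = 2.06e-05) is 1.24-fold.

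H2-D1 (ENSMUSG00000073411, chr17:35262730-35267499), which encodes a classical heavy chain, had 35.3, 33.1 and 31.5 CPM in the control samples and 39.3, 44.9 and 44.2 CPM in the cKO samples. Here too every cKO sample lay above every control sample, with means of 33.3 ± 1.90 and 42.8 ± 3.02 CPM (SD, n = 3). The log2 fold change was 0.34 (95% interval 0.23 to 0.45, standard error 0.052, adjusted p = 0.000322), or 1.27-fold.

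H2-K1 (ENSMUSG00000061232, chr17:33996017-34000347), the other classical heavy chain of this strain, had 30.63, 29.53 and 31.21 CPM in the control samples and 31.22, 33.24 and 32.74 CPM in the cKO samples. The lowest cKO sample lay just above the highest control sample. The log2 fold change of 0.07 did not pass the test (95% interval -0.02 to 0.15, adjusted p = 0.335). Over all genes tested, 20.3% had every cKO sample above every control sample, so such an order is common here.

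H2-D1 and H2-K1 were therefore compared within each sample. The ratio of H2-D1 to H2-K1 counts was 1.15, 1.12 and 1.01 in the control samples and 1.26, 1.35 and 1.35 in the cKO samples. The mean log2 ratio was 0.13 ± 0.10 in control and 0.40 ± 0.058 in cKO (SD, n = 3), a difference of 0.27 with a p of 0.1 in an exact two-sided permutation test, the smallest that 3 samples against 3 allow. This pair was chosen after its values were seen, together with the pairs of H2-Ab1 with Ptprc and with Lyz2 given further on, and the p adjusted over these 3 pairs was 0.1.

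Tap1 (ENSMUSG00000037321, chr17:34187553-34197225) had 8.24, 8.26 and 8.91 CPM in the control samples and 9.53, 9.57 and 9.90 CPM in the cKO samples. The groups did not overlap, but the log2 fold change of 0.17 (95% interval 0.03 to 0.30) missed the threshold (adjusted p = 0.0887). Of the alternatives tried, Tap1 passed only where samples were scaled by total counts alone (log2 fold change 0.19, adjusted p = 0.04996), a scaling that moved the median of all genes to 0.0233.

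The class II genes were at or below a few CPM in every sample. H2-DMa (ENSMUSG00000037649, chr17:34119541-34139101), a chain of the peptide exchanger, was the highest of them, with 3.78, 3.58 and 3.80 CPM in the control samples and 4.30, 4.45 and 4.28 CPM in the cKO samples. The groups did not overlap, and the log2 fold change of 0.20 (95% interval 0.02 to 0.37) missed the threshold (adjusted p = 0.124). Its counts are uncertain, because 10.4% of its exonic bases overlap Brd2 on the opposite strand, the sources do not give the strand setting of the counting, and Brd2 was at 246 CPM in control against 262 in cKO.

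H2-Ab1 (ENSMUSG00000073421, chr17:34257689-34269419), the beta chain of the I-A molecule, was counted 74, 85 and 83 times in control and 66, 80 and 74 times in cKO. These correspond to 1.31, 1.34 and 1.35 CPM and to 1.38, 1.35 and 1.33 CPM. The groups overlapped, and the log2 fold change was -0.01 (95% interval -0.30 to 0.28, adjusted p = 0.982), with a sign that changed to 0.02 under scaling by total counts alone. H2-Aa (ENSMUSG00000036594, chr17:34282744-34287823), the alpha chain that pairs with it, was at the limit of detection, with 3, 2 and 0 reads per control sample and 2, 4 and 2 reads per cKO sample. It was too low to be tested. Its 5 reads over the control samples give 0.0276 CPM (exact 95% Poisson interval 0.00896 to 0.0644), and its 8 reads over the cKO samples give 0.0491 CPM (0.0212 to 0.0968), where the intervals cover counting error only. Thus a difference in H2-Aa was not detectable at this depth.

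H2-Eb1 (ENSMUSG00000060586, chr17:34305867-34316674), the beta chain of the I-E molecule, whose alpha chain gene is defective in C57BL/6 mice, was counted 15, 21 and 27 times in control and 16, 16 and 13 times in cKO. The groups overlapped, with a log2 fold change of -0.35 (95% interval -0.99 to 0.29, adjusted p = 0.514). Cd74 (ENSMUSG00000024610, chr18:60803848-60812652) was counted 16, 15 and 14 times in control and 12, 20 and 17 times in cKO. Its log2 fold change was 0.25 (95% interval -0.38 to 0.87, adjusted p = 0.663). Ciita (ENSMUSG00000022504, chr16:10480059-10528418) was counted 34, 73 and 37 times in control and 38, 44 and 61 times in cKO, and 1 control sample lay above all cKO samples. Its log2 fold change was 0.12 (95% interval -0.43 to 0.68, adjusted p = 0.825) and turned negative without control replicate 1 (-0.03), control replicate 3 (-0.04) or cKO replicate 3 (-0.08). For each of these 3 genes the interval reaches past a 1.5-fold change on 1 side, and the depth limits what can be said of them.

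**Figure D1:**
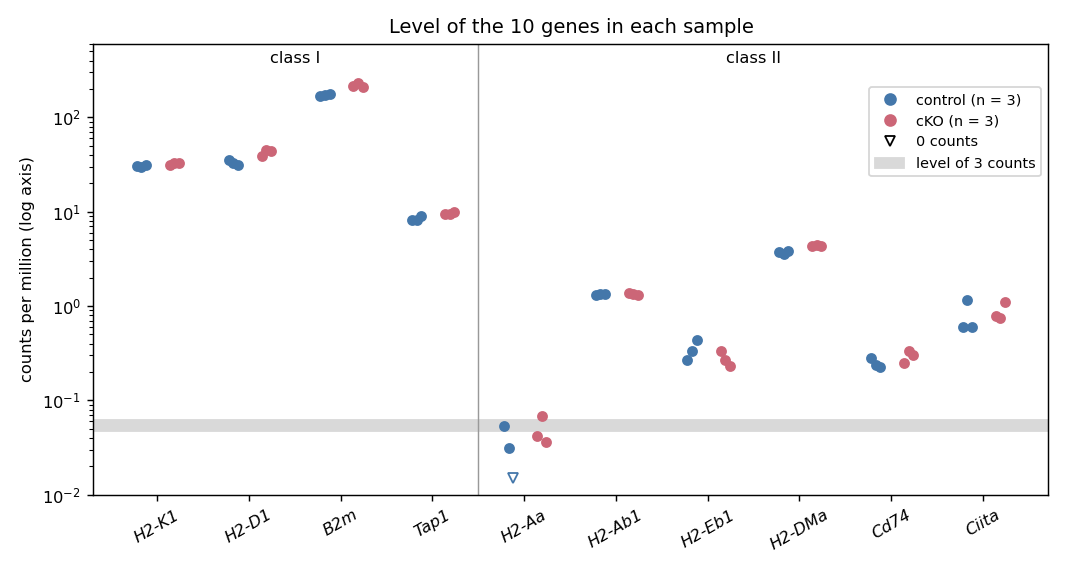
Level of each of the 10 genes (horizontal axis) in CPM on a log axis, 1 point per sample, for 3 control and 3 cKO samples; a triangle marks a sample with 0 counts and the grey band the level that 3 counts give. B2m lay at 173 CPM in control against 218 in cKO, the class II genes were at 4.45 CPM or less in every sample, and H2-Aa was at 0 to 4 counts.

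Per kilobase of exon, the control levels ran from B2m (201 CPM per kb) over H2-D1 (12.9), H2-K1 (10.4), Tap1 (1.55), H2-DMa (1.08), H2-Ab1 (0.520), H2-Eb1 (0.178), Cd74 (0.148) and Ciita (0.0824) to H2-Aa (0.00743 CPM per kb). Neighbours in this order did not overlap in the control samples, with the exception of H2-Eb1 and Cd74, which overlapped in both groups. In the cKO samples Cd74 (0.177 CPM per kb) had a higher mean than H2-Eb1 (0.144), and the rest of the order was as in control. The 2 chains of I-A were thus unequal in RNA, H2-Ab1 being at 0.520 and H2-Aa at 0.00743 CPM per kb in control.

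Class I and class II were then set against each other within each sample. The counts on the 6 class II genes came to 2.58%, 2.75% and 2.58% of those on the 4 class I genes in the control samples and to 2.41%, 2.26% and 2.46% in the cKO samples. The mean log2 ratio of class II to class I counts was 0.15 lower in cKO (-0.15), and all cKO samples lay below all control samples. B2m held 69.7% to 72.7% of the class I counts and H2-DMa 53.7% to 61.6% of the class II counts, so the ratio rests mostly on these genes. The difference was -0.08 without B2m and Cd74, where the groups overlapped because cKO replicate 1 lay above control replicate 1. It was -0.24 without H2-DMa, a choice made after seeing the data.

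Single pairs gave no difference that the test could separate. The log2 ratio of H2-Ab1 to H2-K1 was -4.50 ± 0.046 in control and -4.57 ± 0.070 in cKO (SD, n = 3; exact two-sided permutation p = 0.3, adjusted over 3 pairs p = 0.7). The ratio of Cd74 to B2m was -9.40 ± 0.19 in control and -9.48 ± 0.17 in cKO (exact permutation p = 0.6, adjusted p = 0.7), and that of H2-Aa to H2-D1 had an exact permutation p of 0.7 (adjusted p = 0.7). With 3 samples a group this test cannot go below a p of 0.1.

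Other class I genes of the H2 region and class I-like genes were examined next. Of 20 genes listed, 19 were in the files and 17 were tested. Of these 4 were upregulated, where 9.38% of all tested genes were, and 0 were downregulated. H2-Q2 rose from 1.91 to 2.82 CPM (log2 fold change 0.54 ± 0.11 (SE), adjusted p = 0.00280) and H2-Q4 from 2.71 to 3.76 CPM (0.45, standard error 0.10, adjusted p = 0.00735). H2-T23, which encodes Qa-1, a ligand of NKG2 receptors, rose from 2.90 to 3.99 CPM (log2 fold change 0.44, adjusted p = 0.00604). Mr1, which presents vitamin B metabolites to MAIT cells, rose from 5.13 to 6.995 CPM (log2 fold change 0.43, adjusted p = 0.00715). Each of these genes had every cKO sample above every control sample, as did 20.3% of all tested genes. Fcgrt, the chain of the neonatal Fc receptor, was the most abundant that did not pass, at 17.6 CPM in control against 17.3 in cKO (adjusted p = 0.611). The median log2 fold change was 0.24 over the 17 genes. H2-M2 had 0 counts in every sample and H2-T3 at most 1.

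Class I genes resemble each other, and reads of 75 bases can match more than 1 of them. Over the coding bases that align without a gap, up to base 900 of H2-D1, H2-K1 and H2-D1 were identical at 91.8% of 891 positions. Of all 75-base windows of the transcripts, 5.56% of those of H2-D1, 3.10% of those of H2-K1, 8.07% of those of H2-Q2, 5.91% of those of H2-T23 and 20.7% of those of H2-Q4 occurred exactly in another annotated gene. No such window was found for B2m, Mr1, H2-Aa, H2-Ab1, H2-Eb1 or Cd74. Some sequences from the GENCODE M21 transcripts (GRCm38, printed on the gene strand) are given to show what a read can and cannot separate. The first is a window of H2-D1, coding bases 667 to 741, that occurs unchanged in 8 other annotated genes, H2-K1, H2-Q1 and H2-T23 among them. The others are the aligned windows in which H2-K1 (coding bases 477 to 551) and H2-D1 (486 to 560) differ most, with the 16 differing bases in capitals.
H2-D1, shared window: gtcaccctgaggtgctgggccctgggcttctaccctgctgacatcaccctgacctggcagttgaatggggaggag
H2-K1, differing window: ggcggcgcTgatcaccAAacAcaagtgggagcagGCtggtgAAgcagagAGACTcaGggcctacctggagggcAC
H2-D1, differing window: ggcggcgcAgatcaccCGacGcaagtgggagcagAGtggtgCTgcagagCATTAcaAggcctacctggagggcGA

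The sources used here do not say how reads matching several genes were treated, so the levels of the H2-Q and H2-T genes and a small part of those of H2-D1 and H2-K1 are uncertain by the reads so shared. For H2-D1, the gene with which it shared most windows was H2-Q1 (4.25% of its windows), which was at 2.17 CPM in control against 2.77 in cKO.

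The genes that supply class I molecules with peptides come next. Of 7 genes of peptide loading, 2 were upregulated, where 9.38% of all tested genes were, and 0 were downregulated, with a median log2 fold change of 0.0048. Calr, which encodes the chaperone calreticulin, rose from 1015 to 1170 CPM (log2 fold change 0.18 ± 0.029 (SE), adjusted p = 0.000486). Erap1, the aminopeptidase that trims class I peptides, rose from 9.09 to 10.7 CPM (log2 fold change 0.21, adjusted p = 0.0376). The call of Erap1 was lost with DESeq2 (adjusted p = 0.0842) and without control replicate 1 (0.0703), control replicate 3 (0.177), cKO replicate 1 (0.0541), cKO replicate 2 (0.0935) or cKO replicate 3 (0.0736). Canx, another chaperone of the heavy chain, changed by 0.08 on the log2 scale (adjusted p = 0.0779) and passed with limma-voom (adjusted p = 0.0295) and with total counts alone (0.0191). Of the 5 immunoproteasome genes, 0 passed the test with edgeR, DESeq2 or limma-voom, beside 15.8% of all tested genes with edgeR. With so few genes, 0 cannot be told apart from that share, and 0 of them had an unadjusted edgeR p under 0.05. Psme1, an activator of the proteasome and the highest of them, had 9.90 CPM in control against 9.45 in cKO (adjusted p = 0.378).

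Genes of the class II processing list rose in cKO. The list holds Ctss, Ctsl, Lgmn and Ifi30, which prepare peptides and the invariant chain in endosomes, and March1. All 5 genes were upregulated, beside 9.38% of all tested genes, with a median log2 fold change of 0.58. Ctss, the protease that removes the invariant chain from class II molecules in antigen-presenting cells, was counted 1051, 1122 and 1190 times in control and 2015, 2753 and 2260 times in cKO. Its level rose from 18.6 ± 0.832 to 43.0 ± 3.15 CPM (SD, n = 3; log2 fold change 1.19 ± 0.052 (SE), adjusted p = 9.96e-10). March1, the ubiquitin ligase that takes class II molecules off the surface, rose from 0.313 to 0.654 CPM (log2 fold change 1.02, adjusted p = 0.00743). Ctsl, the related lysosomal protease cathepsin L, rose from 169 to 257 CPM (log2 fold change 0.58), and 26.9% of its exonic bases overlap another gene on the opposite strand. Ifi30, the thiol reductase of endosomes, rose from 9.53 to 13.1 CPM (log2 fold change 0.43). Lgmn, the asparaginyl endopeptidase, rose from 59.9 to 67.0 CPM (log2 fold change 0.14, adjusted p = 0.0133), a call lost when control replicate 1 or 2 was left out (adjusted p = 0.0818 and 0.0728). Ctss, Ctsl, Lgmn and Ifi30 also serve general lysosomal proteolysis, and Ctss and Ifi30 are known as genes of macrophages.

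The remaining class II genes gave no call. Of 7 listed, 6 were in the files and 1, H2-DMb1, could be tested, with 4, 11 and 18 reads per control sample and 22, 19 and 12 reads per cKO sample (log2 fold change 0.81, adjusted p = 0.234, unadjusted p above 0.05). H2-Eb2 had 0 counts in every sample. H2-Oa, H2-Ob and the pseudogene H2-Ea-ps had at most 3.

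**Figure D2:**
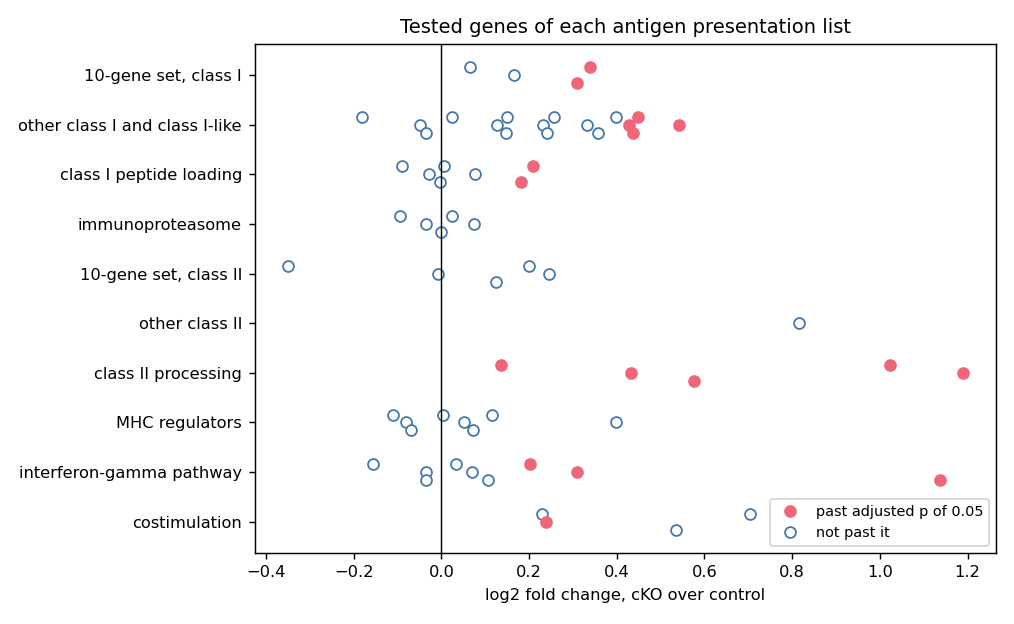
Log2 fold change of cKO over control (horizontal axis) of every tested gene of each antigen presentation list (vertical axis), 1 point per gene, filled where the gene passed an adjusted p of 0.05. Filled points lie above 0, the 5 genes of class II processing reach from 0.14 to 1.19, and no gene of the immunoproteasome, of class II itself or of the MHC regulators is filled.

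Of the 8 regulators of MHC transcription, 0 passed the test with edgeR, DESeq2 or limma-voom, beside 15.8% of all tested genes with edgeR. With so few genes, 0 cannot be told apart from that share. Without adjustment, 1 had an edgeR p under 0.05. That gene was Creb1, which binds the shared promoter element, with 111 CPM in control against 107 in cKO (log2 fold change -0.08, adjusted p = 0.0828). Nlrc5, the coactivator of class I genes, was counted 37, 51 and 21 times in control and 45, 40 and 46 times in cKO (log2 fold change 0.40, 95% interval -0.17 to 0.97, adjusted p = 0.375). Nfya, a chain of NF-Y, passed without cKO replicate 2 (log2 fold change -0.19, adjusted p = 0.00793) and had an adjusted p of 0.187 with all samples. The groups overlapped for Nlrc5 and Nfya, which were named after their values were seen.

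Of 9 tested genes of the interferon-gamma pathway, 3 were upregulated, where 9.38% of all tested genes were, and 0 were downregulated. Ifngr2, a receptor chain, rose from 26.8 to 33.8 CPM (log2 fold change 0.31 ± 0.051 (SE), adjusted p = 0.000548). Jak2, a kinase of that receptor, rose from 41.3 to 48.3 CPM (log2 fold change 0.20, adjusted p = 0.0179), a call lost without control replicate 1 (adjusted p = 0.0768), control replicate 2 (0.0736), cKO replicate 2 (0.0782) or cKO replicate 3 (0.0846). Irf8, a transcription factor of myeloid cells, rose from 0.769 to 1.73 CPM (log2 fold change 1.14 ± 0.16 (SE), adjusted p = 0.00012). Jak1, the most abundant that did not pass, had 87.1 CPM in control against 90.6 in cKO. Ifng itself had at most 1 count in any sample.

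Markers of other cell types were counted beside these results, since the sort left out CD45+ cells and the culture followed it. All 15 macrophage markers were upregulated, beside 9.38% of all tested genes, with a median log2 fold change of 1.06. The marker lists were chosen with earlier results of these data known, so this count is not an independent check. Their summed level was 132 to 138 CPM in the control samples and 278 to 326 CPM in the cKO samples. Lyz2 rose from 80.4 to 186 CPM (log2 fold change 1.18), and C1qa (1.12), Cd68 (0.90), C1qb (1.06), C1qc (1.25) and Laptm5 (0.83) rose with it on the same log2 scale. The call of Aif1, the macrophage marker with the largest adjusted p (0.035), was lost with DESeq2 (0.1003) and without control replicate 2 (0.107), control replicate 3 (0.155), cKO replicate 1 (0.0563), cKO replicate 2 (0.0757) or cKO replicate 3 (0.0902), which leaves 14 of 15, and it was named after its values were seen. Ptprc, which encodes CD45, was at 1.27 to 1.53 CPM in the control samples and 2.63 to 2.99 CPM in the cKO samples (log2 fold change 0.96). The part of the cells with these markers in the rise of B2m, H2-D1, Ctss and Irf8 was not tested. In bulk RNA, more cells of a type and more RNA per cell cannot be told apart.

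Class II genes, which macrophages can express, were set beside these markers. The upper bound of the 95% interval was 0.28 for H2-Ab1, 0.29 for H2-Eb1, 0.37 for H2-DMa, 0.68 for Ciita and 0.87 for Cd74. H2-DMb1 had a log2 fold change of 0.81 with an upper bound of 1.72. The lowest log2 fold change of a macrophage marker was 0.83 (Laptm5), and the lowest lower bound was 0.34 (Aif1). The interval of H2-DMa thus reaches that of Aif1, and those of Ciita, Cd74 and H2-DMb1 reach those of some markers. The log2 ratio of H2-Ab1 to Ptprc counts was 0.04, -0.14 and -0.18 in the control samples and -0.93, -1.07 and -1.17 in the cKO samples. It was lower by 0.96 on average in cKO (-0.96; exact two-sided permutation p = 0.1, the smallest possible). The ratio of H2-Ab1 to Lyz2 differed by -1.18 (exact permutation p = 0.1), and these pairs were chosen after their values were seen.

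**Figure D3:**
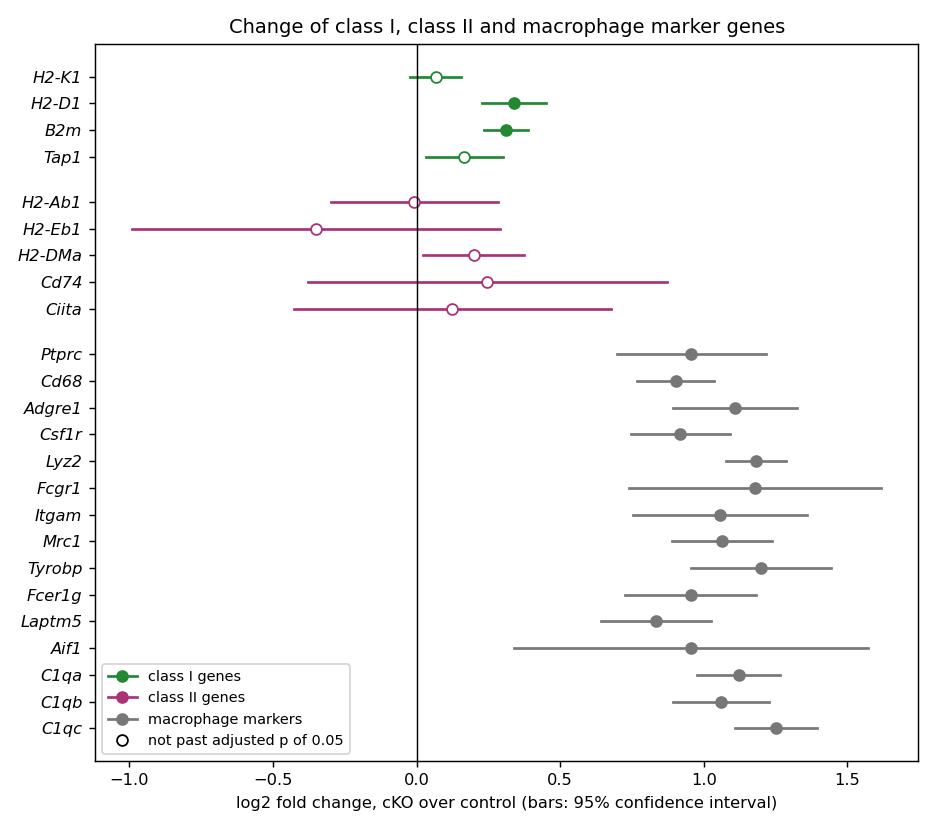
Log2 fold change of cKO over control (horizontal axis) with 95% confidence interval (bars) for the class I, class II and macrophage marker genes that were tested (vertical axis), open where the adjusted p was 0.05 or more. The macrophage markers lie between 0.83 and 1.25, B2m and H2-D1 at 0.31 and 0.34, and each of the 5 class II genes is open.

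Of 8 dendritic cell markers, 4 were tested and 1, Itgax, was upregulated (0.777 to 1.68 CPM, log2 fold change 1.08), beside 9.38% of all tested genes. Flt3, Clec9a, Cd209a and Siglech had at most 2 counts in any sample. Zbtb46 had 8.40 CPM in control against 9.05 in cKO (adjusted p = 0.598). The summed dendritic cell list was at 9.14 to 10.8 CPM in control and 10.7 to 12.1 CPM in cKO, and Zbtb46 made up most of it. Among 5 B cell markers, 1 was tested and did not pass (Cd79a, adjusted p = 0.810), and Ms4a1 was at 0 in every sample. None of 6 T and NK cell markers was high enough to be tested. Ncr1 was at 0 in every sample, and Cd3d and Cd3g had at most 3 counts.

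Other markers of the sample moved as well. Of 8 endothelial markers 4 were upregulated, beside 9.38% of all tested genes. These were Flt1 (log2 fold change 1.12), Kdr (0.78), Cdh5 (0.47) and Pecam1 (0.34). The summed levels of the list were 19.5 to 21.1 CPM in control and 29.4 to 34.6 CPM in cKO. The calls of Cdh5 and Pecam1 had adjusted p-values of 0.0354 and 0.0486 and were both lost without control replicate 2 (0.0653 and 0.184), control replicate 3 (0.120 and 0.175) or cKO replicate 2 (0.177 and 0.152). That of Cdh5 was also lost without control replicate 1 (0.0984) and with limma-voom (0.0515), and that of Pecam1 without cKO replicate 3 (0.132), with DESeq2 (0.109) and with RLE size factors (0.0509). Vwf had 4.004 CPM in control against 5.02 in cKO (adjusted p = 0.0612) and passed without control replicate 3 (0.0379) or cKO replicate 3 (0.0386), with total counts alone (0.0451), with no filter on low counts (0.0206) and with the likelihood-ratio test (0.0314). Of 6 tested fibroblast markers 2 were upregulated, Pdgfra (log2 fold change 1.14) and Dcn (1.10), beside 9.38% of all tested genes. The list summed to 28.6 to 31.4 CPM in control and 56.7 to 65.1 CPM in cKO. Pdgfra, at 22.9 CPM in control against 51.4 in cKO, made up most of this sum. Ly6a, which encodes the gated protein SCA1, did not pass (0.24, adjusted p = 0.115). The median log2 fold change over the 8 satellite cell and myoblast markers was -0.17. Of these 7 were downregulated, beside 6.46% of all tested genes. Des (-0.15), Myog (-0.20), Myod1 (-0.16), Itga7 (-0.12), Vcam1 (-0.19) and Myf5 (-0.37) were the most abundant of those, and Cdh15 did not pass (0.04, adjusted p = 0.572). The call of Des was lost without control replicate 1, 2 or 3 (adjusted p of 0.0509, 0.0594 and 0.0579), and that of Itga7 without any single control sample (0.104, 0.0981 and 0.0582), without cKO replicate 2 or 3 (0.05 and 0.0503) or with total counts alone (0.0625). The 8 markers summed to 6982 to 7124 CPM in control and 6196 to 6662 CPM in cKO. Des (3199 CPM in control against 2925 in cKO) and Myog (2112 against 1876) held most of this sum. It therefore describes these genes more than the other markers of the list.

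**Figure D4:**
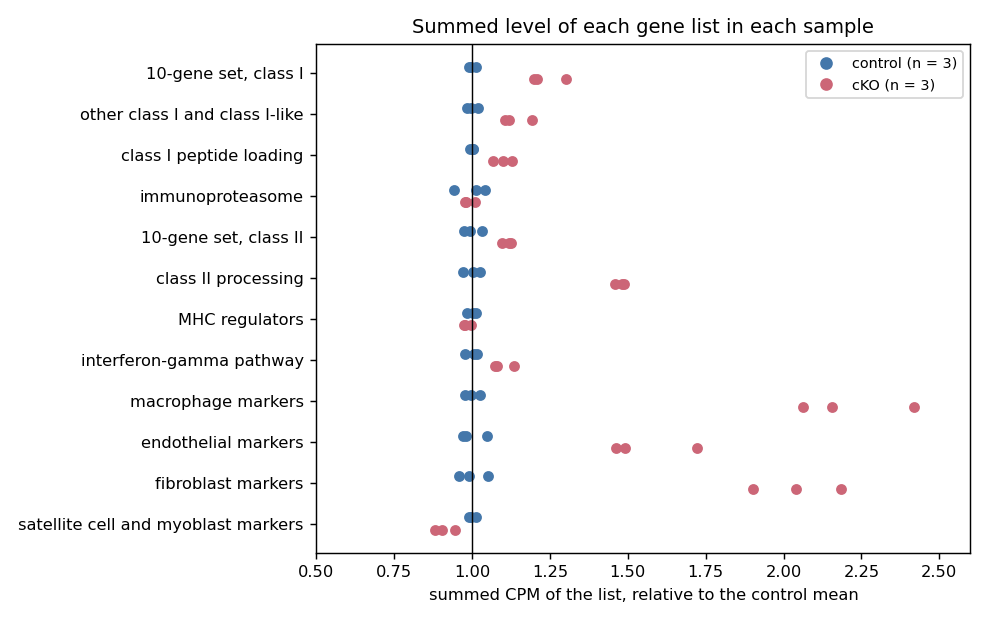
Summed CPM of each gene list relative to the mean of the control samples (horizontal axis) for each list (vertical axis), 1 point per sample, with 3 control and 3 cKO samples. The class I genes lie at 1.20 to 1.30 in cKO, the class II genes at 1.10 to 1.12 (which rests mostly on H2-DMa), class II processing at 1.46 to 1.49 and the macrophage markers at 2.06 to 2.42.

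By Pearson's r of log2 CPM over the 6 samples, among 16640 tested genes with a mean of at least 1 CPM, the genes most like H2-Ab1 were Gm10263, Ints9, Gm12666, Gtf3a and Zfp664 (r of 0.988 to 0.997), and those most like H2-K1 were Gm6733, Ccne2, Pik3cb and Gm16464 (0.987 to 0.993). None of these genes passed an adjusted p of 0.05. The 6 points share their libraries and fall into 2 groups, and H2-Ab1 itself ranged only from 1.31 to 1.38 CPM, so these values describe the order of nearly level genes.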

How the data were processed

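RNA-seq was performed by the authors on 6 samples (TruSeq Stranded Total kit, ribosomal RNA removed, single-end reads of 75 bp). Reads were aligned by the authors to mm10 with Bowtie2 2.3.4.2, an aligner that does not split reads across introns. They were then counted per gene with featureCounts 1.6.3. The deposited raw counts per gene were used. The strand setting and how multi-mapping reads were handled are not given in the sources used here. The series also holds a table of normalized values and one of the authors' own comparison (mean, log2 fold change, standard error, test score and p-values, made with DESeq2 2.11.40.6), neither of which was used.

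All 55536 gene identifiers matched GENCODE M21, which gave symbols, coordinates on GRCm38 (mm10) and exon lengths. Counts were fitted over all genes with edgeR 4.0.16 in R 4.3.3 (filterByExpr, TMM factors of 0.991 to 1.02, quasi-likelihood test on genotype, Benjamini-Hochberg adjustment over 22404 genes, threshold 0.05), after a test on simulated counts. The biological coefficient of variation was 3.92%, and 3 counts correspond to 0.0474 to 0.0626 CPM. DESeq2 1.42.0, limma-voom (limma 3.58.1), other scalings and filters, a replicate block and leaving out each sample were tried. Counts of every pair of samples differed by more than sampling noise. Ratios within samples used counts plus 0.5 for single pairs and exact permutation tests over samples (Python 3.11.15, scipy 1.17.1, numpy 2.4.6, pandas 2.3.3, matplotlib 3.10.9 for plots).

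The 10 genes and the other lists were chosen with earlier results of these data known. Values of some genes are not reported here. Of each other list, the genes named are the called ones (at most 6, by mean CPM), the uncalled gene with the highest mean and genes with at most 3 counts in every sample. Sequences come from RefSeq promoter windows (GRCm38.p6) and GENCODE M21 transcripts.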

Additional observations from a re-analysis of the deposited data

How the results depend on the processing

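The counts of 2 class I and 0 class II genes called held under every alternative tried, with the exception of total-count scaling, which added Tap1. B2m and H2-D1 kept their direction and passed under all 16 alternatives, including a threshold of 0.01. Leaving out 1 sample at a time gave log2 fold changes of 0.27 to 0.33 for B2m and 0.30 to 0.39 for H2-D1. The number of upregulated genes was 1571 to 2214 and that of downregulated genes 917 to 1673 when 1 sample was left out (917, 934 and 960 without control replicate 1, 2 and 3), and 732 genes were downregulated at a threshold of 0.01. H2-Ab1, which did not pass, was at 0.017 with total counts and between -0.022 and 0.0014 when 1 sample was left out, positive without control replicate 3 or cKO replicate 3. Ciita ranged from -0.078 to 0.52 and Cd79a from -0.405 to 0.53 when 1 sample was left out.

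The log2 ratio of class II to class I counts was -0.081 without Cd74 and B2m and -0.24 without H2-DMa, and between -0.17 and -0.11 when 1 sample was left out. The ratio of H2-Ab1 to H2-K1 was between -0.11 and -0.04, that of H2-Aa to H2-D1 between -0.14 and 1.25 (negative without control replicate 3, which had 0 H2-Aa counts), and that of Cd74 to B2m between -0.16 and 0.021 (positive without control replicate 1 or cKO replicate 1). Leaving out a sample gives differences with no test for these ratios. The cause of the other changes was not tested.

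Samples with the same number did not deviate together from their group means (correlations across genes of -0.0145 to 0.0204 over all pairings). With 3 samples a group this check cannot exclude that the samples were paired. The study used a paired t-test for RT-qPCR of such cells and does not say whether its RNA-seq samples were paired. A fit with the replicate block called 1901 genes up and 1251 down, 2 class I and 0 class II genes, with log2 fold changes of 0.31 for B2m and 0.34 for H2-D1. Among the genes named in the text, the block ended the calls of Pecam1 (adjusted p = 0.0824), Aif1 (0.0527) and Cd80 (0.0525). Depth limits H2-Aa, H2-Eb1, Cd74 and Ciita, each with under 75 counts in every sample.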

Other observations

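Costimulatory genes, whose products give the second signal to T cells beside an MHC molecule, were low in these cells. Of 6 listed, 4 were tested and 1 was upregulated, where 9.38% of all tested genes were. Cd80 was counted 388, 412 and 452 times in control and 365, 516 and 474 times in cKO, or 6.91 CPM against 8.28 on average (log2 fold change 0.24 ± 0.074 (SE), adjusted p = 0.0385, edgeR's quasi-likelihood test). The call of Cd80 was lost with DESeq2 (adjusted p = 0.0819), with the replicate block (0.0525), and without control replicate 1 (0.102), control replicate 2 (0.179), cKO replicate 2 (0.129) or cKO replicate 3 (0.134). Cd274, which encodes the inhibitory ligand PD-L1, had 0.534 CPM in control against 0.789 in cKO (adjusted p = 0.199). Pdcd1lg2 had at most 1 count in any sample. Cd86, a main costimulatory molecule of macrophages and dendritic cells, was counted 1, 2 and 7 times in control and 6, 5 and 6 times in cKO and was too low to be tested.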
